A study of Mus musculus with 4 samples.

Results

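Of the 16152 gene names listed in a droplet-based survey of RNA in single blood cells of mice with pancreatitis induced by cerulein, 78 were heat shock proteins and co-chaperones. They were chosen by a rule on names, set with earlier results of these data known. It takes all names that begin with Hsp followed by a, b, d, e, h or 90. Names that begin with Dnaj, or with Cct or Bag followed by a digit, were taken too. The endoplasmic reticulum (ER) chaperones Hspa5 and Hsp90b1 were left out by the same rule and serve as companions here. The 78 were 42 J proteins, 9 members of the HSP70 and HSP110 group, 9 CCT names, 9 BAG and other HSP70 regulators, 6 small heat shock proteins, the pair Hspd1 and Hspe1, and Hsp90ab1. Hspa1a, Hspa1b and Hsp90aa1, the most inducible cytosolic HSP70 and HSP90 genes, were not analysed here.

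Chaperones bind proteins that are unfolded, newly made or misfolded. HSP70 proteins do so in cycles of ATP hydrolysis that J proteins start and that nucleotide exchange factors of the HSP110 and BAG families end, and clients can then pass on to HSP90 or to the ring-shaped CCT chaperonin, which folds actin and tubulin. Under heat or other stress that unfolds proteins, the transcription factor HSF1 binds heat shock elements, repeats of GAA and its complement TTC, and raises a set of cytosolic chaperones that includes Hsph1, Dnaja1, Dnajb1 and Hspa8, while misfolded protein in the ER raises a separate set through XBP1 and ATF6, the J protein gene Dnajb9 among them. In leukocytes chaperone RNA also varies with activation, growth and handling of the cells.

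The blood came from wild-type C57BL/6J mice of 6 to 8 weeks, and mononuclear cells were separated on a Ficoll gradient and processed with a droplet kit that reads the 5′ end of transcripts. Cerulein, an analogue of cholecystokinin that overstimulates pancreatic acinar cells, was given in 7 intraperitoneal injections. There was 1 library at each of 12 h and 24 h, which the labels call the initial phase of pancreatitis, 1 at 96 h, called recovery, and 1 control library at 0 h. The series' design text gives 168 h for the last time, and the number of mice in each library and the treatment of the control mice, beyond the time, are not given in the labels. With 1 library per time no comparison between times could be tested: the intervals below cover counting error only, and differences between mice or between preparations cannot be told apart from the effect of time. The control library is the same in all comparisons with 12 h, 24 h and 96 h.

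Cells were assigned to lineages by marker genes, none of them a chaperone, and the unique molecular identifiers (UMIs) of each gate were summed per library and scaled to the total of that sum (CPM). At 0, 12, 24 and 96 h the monocyte gate held 2738, 2140, 3148 and 1200 cells and the T gate 2671, 1687, 2035 and 5076 cells. The B gate held 1851, 2119, 1850 and 2909 cells and the NK gate 318, 661, 383 and 453 cells. The sums drew on between 1593518 UMIs (NK gate, 0 h) and 31084126 UMIs (T gate, 96 h). Each gate had its own markers at high summed levels, 3586 to 4139 CPM for the B markers in the B gate and 3755 to 4134 CPM for the monocyte markers in the monocyte gate. The T markers stood at 2394 to 2721 CPM in the T gate and the NK markers at 9335 to 9993 CPM in the NK gate. Monocyte markers summed to at most 60.2 CPM in the lymphocyte gates. These levels follow from gating on the same markers and are no check of the gates. The 8 NK markers summed to 314 to 519 CPM in the T gate, where they were not used to exclude cells.

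Some features of the libraries bear on every value. The gene names are largely those of rat (28 begin with RT1-, the prefix of rat histocompatibility genes, and 0 with H2-, that of mouse) while the labels name mouse and mm10, so reads of mouse genes that differ from rat may be missing or assigned to a near copy. Hspa8, Hsp90ab1 and Hspe1 have near-identical processed pseudogenes, and their counts are uncertain for that reason. The barcode lists of the 12 h and 24 h libraries were identical (11663 barcodes), although the 24 h matrix holds 12588 cells, and the control list names 4340 barcodes for 14569 cells. Shared barcodes could therefore not be traced to cells of those libraries, and each matrix was taken as the library its label names. Between libraries 0 cells had identical counts. The median share of mitochondrial UMIs in the monocyte gate was 6.81%, 5.89%, 6.31% and 5.91% at 0, 12, 24 and 96 h, and in the T gate 7.37%, 6.14%, 6.68% and 6.25%. In the B gate it was 8.34%, 7.26%, 7.67% and 7.31% and in the NK gate 7.02%, 5.92%, 6.06% and 5.29%, so the control was highest in each gate. Median UMIs per cell differed too, at 3655.5, 4022.5, 5255 and 4679.5 in the monocyte gate. Free RNA was present: Lyz2, a monocyte gene, stood at 235 to 559 CPM in the T gate against 17269 to 29510 CPM in the monocyte gate.

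Of the 78 members, 47 were measured in at least 1 of the 4 lineages and 34 in all 4, where measured means an average of at least 20 CPM over the 4 libraries and at least 100 UMIs in all. By lineage, 38 were measured in monocytes, 38 in T cells, 41 in B cells and 41 in NK cells. All 7 of the CCT subunits Cct2, Cct3, Cct4, Cct5, Cct6a, Cct7 and Cct8 were measured everywhere, whereas of the small heat shock proteins only Hspb11 passed, in the T gate. Hspb1, the best known of that family, had 3 UMIs in all 16 sums of library and lineage. Hsp90ab1, the constitutive cytosolic HSP90, and Hspa8, the constitutive cytosolic HSP70, together held 41.9% of the 945114 member UMIs, and the 7 CCT subunits 25.4%. Since the kit tags one end of each molecule, these are shares of tagged molecules.

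All members together made up 5620, 6340, 5068 and 6206 CPM of the monocyte gate at 0, 12, 24 and 96 h. In the T gate the sums were 5568, 6579, 5522 and 6365 CPM, in the B gate 5221, 5718, 5293 and 5938 CPM, and in the NK gate 7396, 7462, 7429 and 8879 CPM. The summed level was thus higher at 96 h than in the control in each gate, and in monocytes it was lowest at 24 h. In CPM the NK gate stood above the other gates at every time, but a ranking of gates depends on the scaling. Under the scaling of the lineage tests below, 15 of 66 members were higher in NK than in T cells and 15 lower. Of all 11099 genes tested 21.8% were higher and 23% lower, so the member counts lay near the share over all genes. The members' median log2 fold change was -0.03. Scaling by library size, as in CPM, shifted the median of all genes in that contrast by 0.37.

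**Figure D1:**
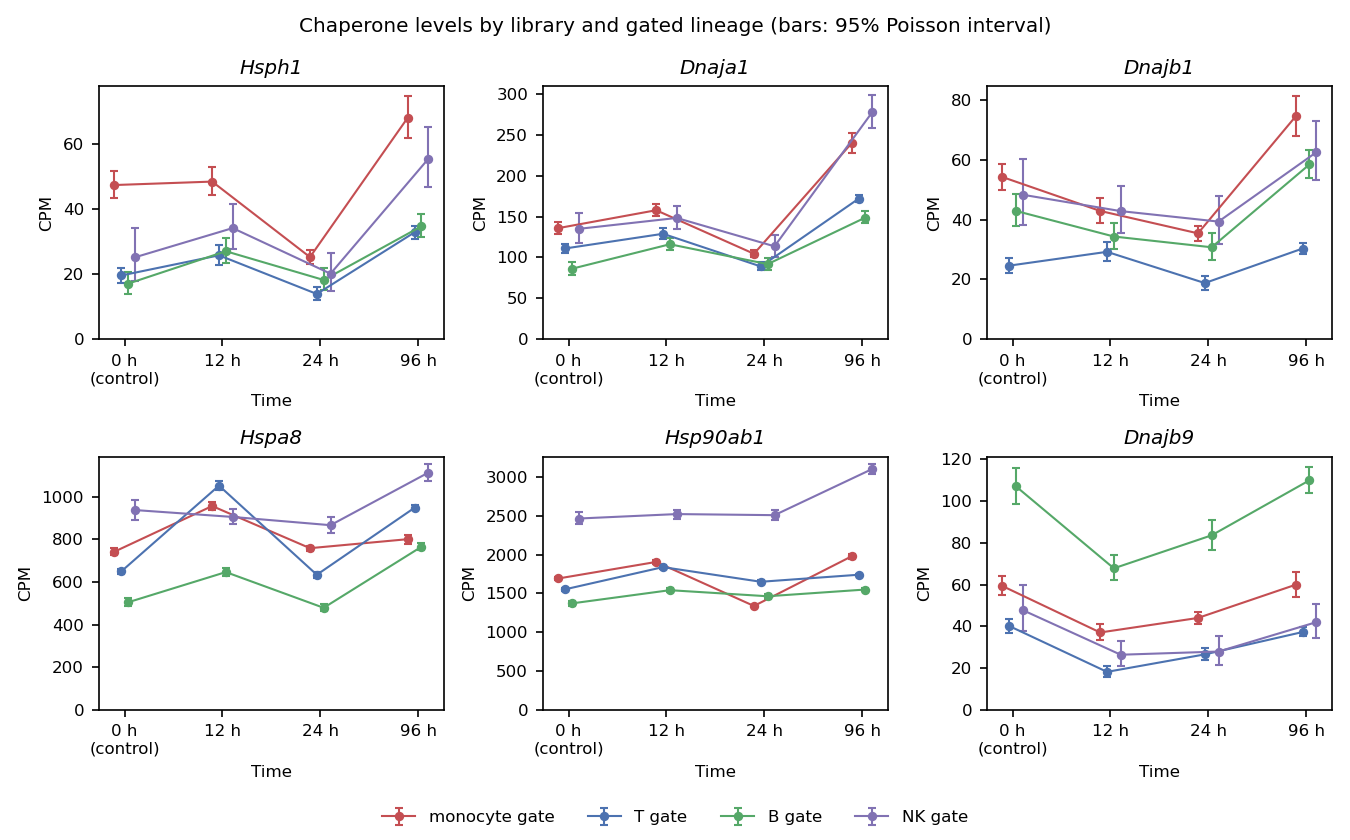
Levels of 6 chaperone genes in CPM (linear axis from 0) at 0, 12, 24 and 96 h in the monocyte, T, B and NK gates. Each point is 1 library, bars are exact 95% Poisson intervals of the count, times are evenly spaced, and lines only join points of a gate. Hsph1, Dnaja1 and Dnajb1 were highest at 96 h in each gate, and Dnajb9 was lowest at 12 h in each.

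Hsph1, Dnaja1 and Dnajb1 had their highest levels at 96 h in each gate. Their lowest were at 24 h, except that in B cells the control was lowest for Hsph1 and Dnaja1. Hsph1 encodes HSP110, a nucleotide exchange factor of HSP70. In monocytes Hsph1 stood at 47.3, 48.3, 25.2 and 67.9 CPM at 0, 12, 24 and 96 h, in T cells at 19.5, 25.7, 13.9 and 32.8 CPM, in B cells at 17.0, 27.0, 18.2 and 34.6 CPM, and in NK cells at 25.1, 34.1, 20.1 and 55.3 CPM. The 96 h library was the highest in all 4 gates, and the 24 h library the lowest in all but B cells, where the control was lowest. In B cells the control and 24 h levels lay close together, at 17.0 and 18.2 CPM. Against the control, Hsph1 at 96 h was 1.44-fold higher in monocytes (95% interval 1.26 to 1.63), 1.68-fold in T cells (1.47 to 1.92), 2.03-fold in B cells (1.63 to 2.57) and 2.20-fold in NK cells (1.54 to 3.21). At 24 h Hsph1 in monocytes was at 0.532 of the control level (0.471 to 0.602), and in T cells at 0.710 (0.588 to 0.856).

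Dnaja1, a cytosolic J protein that hands clients to HSP70, showed the same order. Its level was 136, 158, 104 and 240 CPM in monocytes and 111, 129, 88.9 and 172 CPM in T cells at 0, 12, 24 and 96 h. In B cells Dnaja1 stood at 86.2, 116, 91.8 and 149 CPM and in NK cells at 135, 148, 114 and 278 CPM. Again 96 h was the highest library in each gate, with no overlap of its interval with those of the other libraries. The ratio of 96 h to control was 1.77 in monocytes (1.64 to 1.90), 1.55 in T cells (1.46 to 1.64), 1.73 in B cells (1.56 to 1.91) and 2.06 in NK cells (1.77 to 2.41).

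Dnajb1 encodes HSP40, the J protein that starts the HSP70 cycle in the stress response and that feeds back on HSF1. It stood at 54.3, 42.9, 35.4 and 74.6 CPM in monocytes, 24.6, 29.2, 18.8 and 30.3 CPM in T cells, 42.9, 34.3, 30.8 and 58.5 CPM in B cells and 48.3, 42.9, 39.3 and 62.5 CPM in NK cells, at 0, 12, 24 and 96 h. The 24 h library was the lowest and the 96 h library the highest in each gate. At 24 h Dnajb1 was at 0.653 of the control level in monocytes (0.586 to 0.727) and at 0.717 in B cells (0.590 to 0.870), and at 96 h it was 1.37-fold above the control in monocytes (1.22 to 1.55). In NK cells the ratio of 96 h to control was 1.29, with an interval that includes 1 (0.982 to 1.72). The monocyte ratio at 24 h no longer passed 1.5-fold with at most 5% mitochondrial UMIs per cell (0.824), with a stricter gate (0.752; at least 5 UMIs from at least 3 markers and 0 from other lineages), with the mean over cells (0.734) or with median-of-ratios scaling.

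Hspa8 followed a different order in monocytes and T cells. Its level was 742, 956, 758 and 801 CPM in monocytes and 649, 1052, 634 and 949 CPM in T cells, highest at 12 h in both. In B cells it was 504, 646, 478 and 765 CPM and in NK cells 938, 905, 866 and 1113 CPM, highest at 96 h. In T cells Hspa8 was 1.62-fold above the control at 12 h (1.58 to 1.67) and 1.46-fold at 96 h (lower bound 1.43), and at 24 h its ratio to control was 0.976 (0.948 to 1.01). In B cells it was 1.52-fold above the control at 96 h (1.45 to 1.58), a ratio that became 1.48 with median-of-ratios scaling.

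The T-cell values depended on which cells were kept. With at most 5% mitochondrial UMIs only 56 T cells of the control library remained, and against them Hsph1 in T cells at 96 h was at 0.808 of the control level, Dnaja1 at 1.38 and Hspa8 at 12 h at 1.18. At the same limit Hsph1 in T cells was at 0.595 at 12 h and at 0.367 at 24 h, and Dnajb1 in T cells at 0.709 at 12 h, 0.504 at 24 h and 0.704 at 96 h. In T cells with no UMI of an NK marker, 889 of 2671 in the control library, Hsph1 at 96 h was 1.43-fold and Dnaja1 1.38-fold above the control, and 0 of 36 measured members passed 1.5-fold. In monocytes the ratio of Hsph1 at 96 h to control ran from 1.43 to 1.77 over the 9 alternatives tried, and that of Dnaja1 from 1.76 to 2.08. For Hsph1 at 96 h the ratios ran from 1.92 to 2.31 in B cells and from 1.62 to 2.37 in NK cells. Dnaja1 at 96 h ran from 1.68 to 1.82 in B cells and from 1.97 to 2.14 in NK cells, over the 8 alternatives left where the limit of 5% kept too few control cells.

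The DNA before the start of these genes is shown to let the heat shock elements be seen. RefSeq promoters (build GRCm38.p6) were matched by symbol for 62 of the 78 members, and the 250 bases before the start were searched on both strands for GAANNTTC or TTCNNGAA, a pair of facing units of the element. Capitals mark the matches, and each sequence is printed 5′ to 3′ on the strand of its gene. Hspe1 is added because it holds the longer form and Dnajb9 because its values ran against those of the others.
Hsph1, chr5:149636337-149636586, minus strand: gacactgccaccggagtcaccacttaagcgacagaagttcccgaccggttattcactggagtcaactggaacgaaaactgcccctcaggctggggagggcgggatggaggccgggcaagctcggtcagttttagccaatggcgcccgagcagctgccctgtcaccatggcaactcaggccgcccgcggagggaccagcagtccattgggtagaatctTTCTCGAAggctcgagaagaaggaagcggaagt
Dnaja1, chr4:40722218-40722467, plus strand: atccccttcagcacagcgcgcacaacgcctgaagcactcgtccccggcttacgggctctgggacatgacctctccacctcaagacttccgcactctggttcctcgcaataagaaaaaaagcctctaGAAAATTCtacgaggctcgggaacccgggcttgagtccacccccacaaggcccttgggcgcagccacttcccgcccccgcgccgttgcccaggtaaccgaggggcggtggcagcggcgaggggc
Hspe1, chr1:55087898-55088147, plus strand: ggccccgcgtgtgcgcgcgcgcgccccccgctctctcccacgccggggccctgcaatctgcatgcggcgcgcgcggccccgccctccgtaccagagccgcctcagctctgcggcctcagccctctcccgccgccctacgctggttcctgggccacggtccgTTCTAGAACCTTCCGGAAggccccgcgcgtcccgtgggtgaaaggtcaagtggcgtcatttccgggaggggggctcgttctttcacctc
Dnajb9, chr12:44210069-44210318, minus strand: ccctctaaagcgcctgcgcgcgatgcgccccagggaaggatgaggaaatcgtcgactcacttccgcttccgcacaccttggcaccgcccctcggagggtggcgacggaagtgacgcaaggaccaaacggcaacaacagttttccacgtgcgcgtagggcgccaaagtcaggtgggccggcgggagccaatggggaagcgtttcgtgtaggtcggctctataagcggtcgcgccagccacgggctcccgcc

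RefSeq gives some genes several starts, so shares are set side by side per gene (a match at any start) or per promoter. A facing pair was present for 14 of the 62 matched members (22.6%), against 14.5% of 27025 genes, and in 16 of the 81 promoters of members (19.8%), against 12.8% of 32851 promoters. Hsph1 and Dnaja1 were among the 14, and Dnajb1 was not. Of the 3 starts of Dnaja1 only the 1 printed above had a match. Hspa8 and Hsp90ab1 were not among the 62 and were not searched. The form with 3 units (GAA, TTC and GAA, or TTC, GAA and TTC, each 2 bases apart) stood in 3 of the 62 (Dnajb6, Hspd1 and Hspe1), against 0.514% of all genes. Hspd1 and Hspe1 encode the mitochondrial chaperonin and its lid and share a promoter region between them. The ER stress element, CCAAT and CCACG with 9 bases between them, was found in 1 of the 62, Dnajc3, and in 0.13% of all genes. The matches overlap, since the 3-unit form contains the facing pair, and they describe letters, not binding.

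Dnajb9 had its lowest level at 12 h in every gate. It encodes ERdj4, an ER J protein that assists HSPA5 and holds back the stress sensor IRE1. Dnajb9 stood at 59.3, 37.0, 44.0 and 59.9 CPM in monocytes, 40.1, 18.1, 26.5 and 37.2 CPM in T cells, 107, 67.8, 83.6 and 110 CPM in B cells and 47.7, 26.3, 27.9 and 42.0 CPM in NK cells, at 0, 12, 24 and 96 h. In each gate the 12 h interval lay below that of the control, and the intervals of the 96 h ratios included 1. The NK levels at 12 h and 24 h lay close together, at 26.3 and 27.9 CPM. At 12 h the level was 0.624 of the control in monocytes (0.549 to 0.710), 0.452 in T cells (0.382 to 0.533), 0.633 in B cells (0.562 to 0.713) and 0.552 in NK cells (0.396 to 0.770). At 24 h it was 0.661 of the control in T cells (0.578 to 0.755) and 0.584 in NK cells (0.415 to 0.821). Dnajb9 in T cells at 12 h was at 0.269 with at most 5% mitochondrial UMIs, and in monocytes at 0.669, just inside 1.5-fold. The T-cell ratio at 24 h was up to 0.707 over the alternatives and lay inside 1.5-fold under 4 of them.

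Dnajb11 and Dnajc3, also J proteins of the ER, were not lower in the pancreatitis libraries of monocytes. Dnajb11, which encodes ERdj3, a secreted and luminal cofactor of HSPA5, stood at 105 CPM in monocytes at 12 h against 71.8 CPM in the control, a ratio of 1.47 (1.34 to 1.61). Dnajc3, which encodes p58IPK, stood at 85.7 CPM at 24 h against 70.1 CPM in control monocytes (1.22-fold, 1.12 to 1.33). Hspa13, a microsomal HSP70, was at 42.2 CPM in monocytes at 24 h against 33.8 CPM in the control (1.25-fold, 1.11 to 1.41), but at 0.734 of the control with at most 5% mitochondrial UMIs. Thus at 12 h Dnajb9 and Dnajb11 lay on opposite sides of the control within the same monocytes.

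Hsp90ab1 stood at 1694, 1907, 1339 and 1981 CPM in monocytes, 1554, 1840, 1651 and 1742 CPM in T cells, 1372, 1542, 1464 and 1551 CPM in B cells and 2468, 2525, 2511 and 3107 CPM in NK cells, at 0, 12, 24 and 96 h. In CPM, NK cells had the highest level at each time. The largest of its departures from the control were 0.790 of the control level at 24 h in monocytes and 1.26-fold at 96 h in NK cells, so none reached 1.5-fold.

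The mitochondrial chaperonin pair stayed within 1.5-fold of the control in all 4 gates. Hspd1, the chaperonin HSP60, was at 63.3 CPM in monocytes at 24 h against 83.5 CPM in the control, and at 231 CPM in NK cells at 96 h against 179 CPM in the control, a ratio of 1.29 that was 0.968 with the stricter gate. Hspd1 was past 1.5-fold at the limit of 5% mitochondrial UMIs in T cells at 12 h (0.590) and in monocytes at 96 h (1.61), and Hspe1 in T cells at 24 h (0.620). Hspe1, its lid HSP10, was 1.36-fold above the control in monocytes at 12 h, with an interval of 1.14 to 1.62. Hspa9, the HSP70 of mitochondria, was measured in B cells alone, where it stood at 20.3 CPM at 96 h against 30.2 CPM in the control (0.672, 0.549 to 0.824), just inside the limit of 1.5-fold and past it with the stricter gate (0.601). Dnajc15, a J protein of the inner mitochondrial membrane, was 1.59-fold above the control in monocytes at 12 h (29.4 against 18.6 CPM, 1.32 to 1.90), and 1.48-fold without cells that held a cell cycle UMI.

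The CCT subunits moved little. None of the 7 measured subunits reached 1.5-fold in any gate at any time, and the family's median log2 ratio to control lay between -0.13 (monocytes, 24 h) and 0.21 (NK cells, 96 h). The largest departure was Cct3 in NK cells at 96 h, at 239 CPM against 166 CPM in the control (1.44-fold, 1.24 to 1.67). Cct5 in NK cells was at 347 CPM at 12 h against 387 CPM in the control (0.895, 0.809 to 0.992). Tcp1, which encodes the subunit CCT1 and is not named Cct, was 1.41-fold above the control in T cells at 96 h (1.32 to 1.51), and at 0.972 of it with at most 5% mitochondrial UMIs.

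Regulators of HSP70 were measured in small number. Bag1, Bag6 and Hspbp1, exchange factors or client-handling cofactors of HSP70, were measured in all gates and none reached 1.5-fold in any of the 4 lineages. Bag3, which links HSP70 to autophagy, was measured in T cells only, at 18.6, 17.8, 26.8 and 22.7 CPM at 0, 12, 24 and 96 h, and its 24 h level was 1.44-fold that of the control (1.23 to 1.70). With at most 5% mitochondrial UMIs, against the 56 control T cells left, Bag3 was at 4.04 times the control level at 24 h and Hspbp1 in T cells at 2.02, 3.46 and 2.20 times at 12, 24 and 96 h. In NK cells Bag3 stood at 10.0, 28.5, 18.4 and 20.6 CPM and fell short of the limit for measured genes, with an average of 19.4 CPM. Hspa4, a further HSP110 protein, lay within 1.5-fold everywhere.

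Among the remaining J proteins the departures were scattered. Dnajb4 in T cells was at 18.4 CPM at both 12 h and 24 h against 27.9 CPM in the control (0.661 at both times), and at up to 0.681 and 0.707 at these times over the alternatives. Dnajc14 in NK cells was at 29.5 CPM at 12 h against 16.3 CPM in the control (1.81-fold, 1.15 to 2.93), and Dnajc17 in NK cells at 46.7 CPM at 24 h against 29.5 CPM (1.58-fold, 1.12 to 2.28). The control NK gate held 318 cells, and these intervals are wide. Dnajc21, needed for ribosome assembly in human cells, was at 59.9 CPM in B cells at 24 h against 42.4 CPM in the control (1.41-fold). Dnajc2, a J protein of the ribosome, was at 101 CPM in T cells at 96 h against 117 CPM (0.866, 0.816 to 0.919), and Dnajc8, a splicing-associated J protein, at 134 CPM against 149 CPM (0.902, 0.856 to 0.951). Dnajb6, which keeps aggregation-prone proteins soluble, was at 34.2 CPM in B cells at 96 h against 45.5 CPM (0.751, 0.640 to 0.882). In T cells at 12 h Dnajc1, an ER membrane J protein, was at 90.8 CPM against 65.2 CPM (1.39-fold, 1.27 to 1.53).

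**Figure D2:**
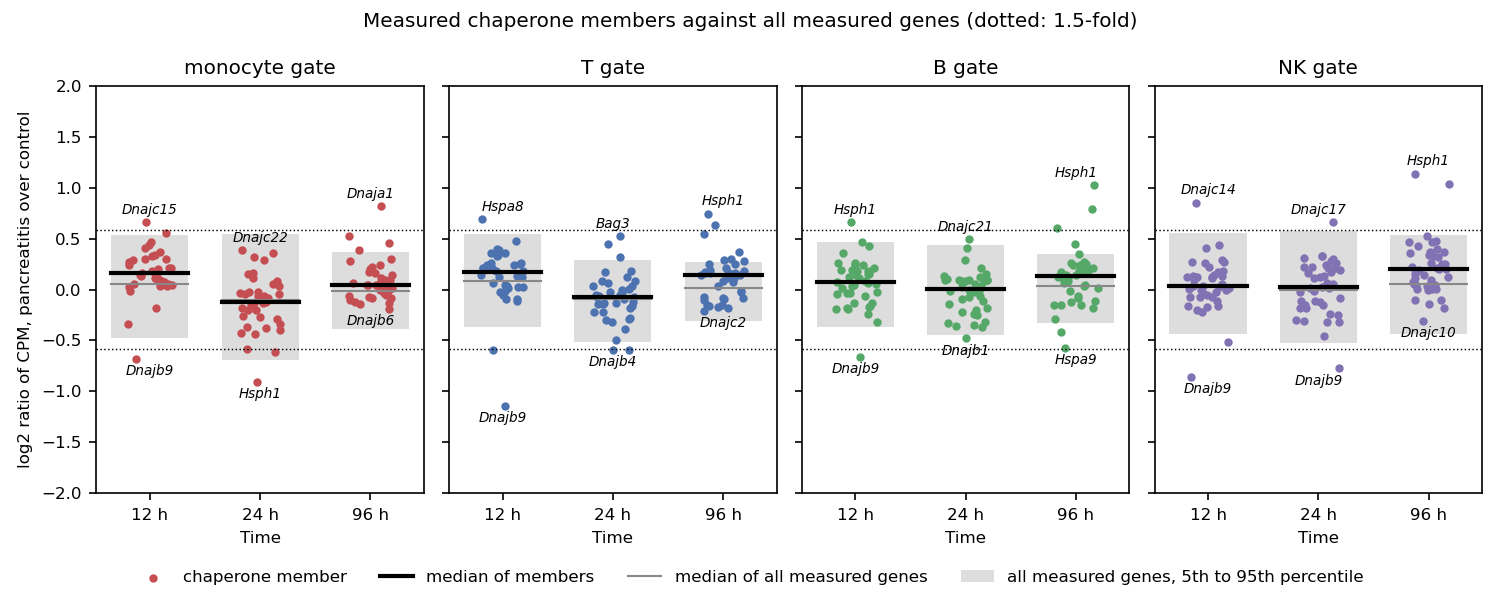
Log2 ratio of CPM, pancreatitis over control, for each measured chaperone member (points) at 12, 24 and 96 h in the 4 gates. Grey boxes span the 5th to 95th percentile of all measured genes, black and grey lines are the medians of members and of all measured genes, and dotted lines mark 1.5-fold. Most points lie inside the boxes, and Hsph1 is the highest member at 96 h in T, B and NK cells.

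In each of the 4 lineages and at each time, between 0 and 3 members passed 1.5-fold in either direction. In monocytes at 12 h, 1 of 38 measured members was at least 1.5-fold higher (Dnajc15; background 3.97% of 4431 genes) and 1 lower (Dnajb9; background 3.14%). At 24 h 0 were higher (background 4.27%) and 2 lower (Hsph1 and Dnajb1; background 7.72%). At 96 h 1 was higher (Dnaja1; background 1.94%) and 0 lower (background 1.06%). The monocyte shares lie near the background. The median log2 ratio of members in monocytes was 0.16, -0.12 and 0.04 at 12, 24 and 96 h, beside 0.05, -0.10 and -0.01 over all measured genes.

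In T cells at 12 h 1 of 38 measured members was higher (Hspa8; background 4.24% of 3818 genes) and 2 lower (Dnajb9 and Dnajb4; background 1.75%). At 24 h 0 were higher (background 1.2%) and 2 lower (Dnajb9 and Dnajb4; background 3.25%), and at 96 h 2 were higher (Hsph1 and Dnaja1; background 0.602%) and 0 lower (background 0.629%). The share higher at 96 h lay above the background and rests on these 2 genes, neither of which passed 1.5-fold in T cells without an NK marker UMI. The median log2 ratio was 0.17, -0.07 and 0.14 for members and 0.08, -0.10 and 0.01 for all measured genes at 12, 24 and 96 h.

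In B cells at 12 h 1 of 41 measured members was higher (Hsph1; background 2.57% of 4438 genes) and 1 lower (Dnajb9; background 1.71%). At 24 h 0 were higher (background 1.67%) and 0 lower (background 2.01%), and at 96 h 3 were higher (Hsph1, Dnaja1 and Hspa8; background 0.811%) and 0 lower (background 0.766%). The share higher in B cells at 96 h also lay above the background and rests on 3 genes. In NK cells at 12 h 1 of 41 was higher (Dnajc14; background 4.4% of 4565 genes) and 1 lower (Dnajb9; background 2.26%). At 24 h 1 was higher (Dnajc17; background 4.88%) and 1 lower (Dnajb9; background 3.72%), and at 96 h 2 were higher (Dnaja1 and Hsph1; background 3.96%) and 0 lower (background 1.84%). The members' median log2 ratio at 96 h was 0.13 in B cells and 0.20 in NK cells, beside 0.04 and 0.05 over all measured genes.

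**Figure D3:**
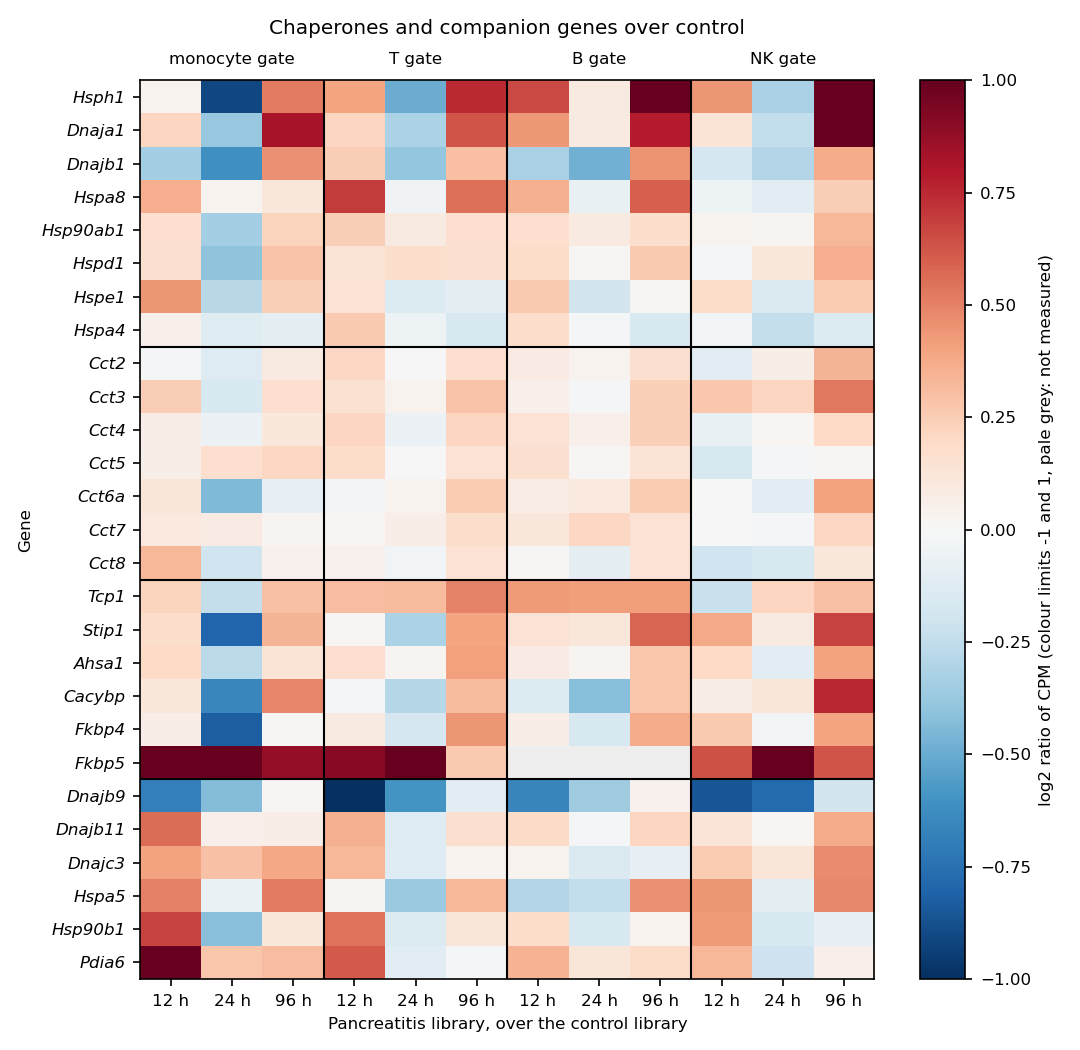
Log2 ratio of CPM, pancreatitis over control, of core chaperones, CCT subunits, cytosolic partners and ER genes (rows, separated by lines) at 12, 24 and 96 h in each gate (columns). Red is higher and blue lower than the control, the colour stops at 1 in either direction, and pale grey cells were not measured. The column of 24 h monocytes is blue for Hsph1, Stip1, Cacybp and Fkbp4, and Fkbp5 runs past the colour limit there.

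Genes that work beside the members were read from lists chosen with earlier results of these data known. Of 30 cytosolic partners and folding factors 25 were measured in monocytes. At 24 h 2 of them passed 1.5-fold upward (background 4.27%) and 3 downward (background 7.72%). Those 3 were co-chaperones of HSP90 or its clients: Fkbp4 at 63.1 CPM against 112 CPM in the control (0.565, 0.523 to 0.611), Stip1, the bridge between HSP70 and HSP90, at 0.576 of the control, and Cacybp at 0.637. None of the 3 passed 1.5-fold with the stricter gate, where Fkbp4 was at 0.696, Stip1 at 0.702 and Cacybp at 0.764, and with the mean over cells only Stip1 did (0.636). Fkbp5, a co-chaperone of HSP90 that glucocorticoids induce, went the other way. It stood at 119 CPM in monocytes at 24 h against 9.78 CPM in the control, 12.2-fold higher (10.1 to 14.9), and was 3.91-fold higher at 12 h and 1.84-fold at 96 h. In T cells Fkbp5 was 1.88-fold above the control at 12 h and 3.30-fold at 24 h, the last at 5.36-fold with at most 5% mitochondrial UMIs. In NK cells at 96 h 5 of 25 measured partners were higher (background 3.96%) and 0 lower (background 1.84%). Among the 5 were Chordc1 (1.96-fold) and Cacybp (1.69-fold, but 1.40-fold with the stricter gate). In B cells at 96 h 1 of 26 was higher (background 0.811%), Stip1 (56.8 against 37.9 CPM, interval of the ratio 1.28 to 1.76). Stip1 was inside 1.5-fold there with median-of-ratios scaling (1.46-fold).

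Of the ER list of 15 genes, the 11 measured in monocytes had a median log2 ratio of 0.39 at 12 h and the 10 measured in T cells one of 0.41, beside 0.05 and 0.08 over all measured genes. In monocytes 3 of 11 measured genes were higher (background 3.97%) and 1 lower (background 3.14%). Pdia6, a disulfide isomerase, was at 252 CPM against 110 CPM in the control (2.30-fold, 2.15 to 2.46), and Calr, the lectin chaperone calreticulin, was 1.78-fold and Hsp90b1, the ER form of HSP90, was at 516 CPM against 323 CPM. Atf4, a translation-controlled stress factor, was at 0.642 of the control. In T cells at 12 h 3 of 10 were higher (Sdf2l1, Manf and Pdia6; background 4.24%) and 0 lower (background 1.75%). The T-cell median was 0.0021 at the limit of 5% mitochondrial UMIs, and only Manf of the 3 passed 1.5-fold (1.58). In B cells at 12 h 0 of 12 were higher (background 2.57%) and 2 lower (Ddit3 and Atf4; background 1.71%). Dnajb9 was thus low at 12 h in monocytes and T cells beside higher Pdia6.

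Immediate early genes, which respond within minutes to handling and activation, were also lower at 12 h. In monocytes 10 of 11 measured genes were at least 1.5-fold lower (background 3.14%) and 0 higher (background 3.97%). The median log2 ratio was -0.68, and Fosb was at 5.22 CPM against 34.3 CPM in the control. In T cells 6 of 8 were lower (background 1.75%, median -0.73) and Jun was at 12.2 CPM against 62.1 CPM. In B cells 3 of 9 (background 1.71%) and in NK cells 1 of 9 (background 2.26%) were lower. At 24 h 2 of the 11 were higher (background 4.27%) and 1 lower (background 7.72%) in monocytes. In T cells 4 of 8 were higher (background 1.2%) and 2 lower (background 3.25%). In B cells 0 of 9 were higher (background 1.67%) and 1 lower (background 2.01%) at that time. In NK cells 1 of 9 was higher (background 4.88%) and 0 lower (background 3.72%). At 96 h 2 of the 11 were higher (background 1.94%) and 1 lower (background 1.06%) in monocytes. In T cells 1 of 8 was higher (background 0.602%) and 1 lower (background 0.629%). Their part in the chaperone values was not tested.

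The monocyte gate is a mixture whose makeup differed between libraries. Cells with classical markers (Fn1, Vcan and F13a1) numbered 285, 492, 1003 and 281 and cells with nonclassical markers (Cx3cr1, Spn and Eno3) 2184, 1377, 1916 and 861 at 0, 12, 24 and 96 h. Hsph1 stood at 28.2, 32.7, 15.8 and 32.0 CPM in the classical cells and at 51.9, 55.7, 34.2 and 87.8 CPM in the nonclassical cells. The lower level at 24 h was present in both, at 0.561 of the control in classical cells (0.411 to 0.775) and 0.660 in nonclassical cells (0.570 to 0.763). At 96 h Hsph1 was 1.13-fold the control in classical cells (0.791 to 1.63) and 1.69-fold in nonclassical cells (1.47 to 1.96).

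Dnaja1 and Dnajb1 also had larger ratios in nonclassical cells at 96 h. Dnaja1 at 96 h was at 141 CPM against 109 CPM in control classical cells (1.29-fold, 1.09 to 1.54) and at 295 CPM against 140 CPM in control nonclassical cells (2.10-fold, 1.93 to 2.28). Dnajb1 at 96 h was 1.07-fold the control in classical cells (0.797 to 1.43) and 1.65-fold in nonclassical cells (1.43 to 1.90). Whether the subsets differ in this was not tested, since each time has 1 library. At 12 h Dnajb9 was at 0.682 of the control in classical (0.511 to 0.911) and at 0.651 in nonclassical cells (0.555 to 0.762).

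In classical cells at 12 h 7 of 35 measured members were at least 1.5-fold higher (background 15.6%) and 0 lower (background 6.67%). They were Dnajc9, Dnajc22, Dnajb11, Hspa14, Dnajc15, Hspd1 and Dnajc19. Dnajc9, a histone co-chaperone, was at 37.5 CPM against 13.3 CPM in the control (2.81-fold, 1.83 to 4.46). Dnajb11 was at 121 CPM against 67.2 CPM (1.79-fold, 1.47 to 2.20). Cells with a UMI of a cell cycle gene made up 9.15% of classical cells at 12 h and 5.61% in the control, and their part in these values was not tested. In nonclassical cells at 96 h 3 of 39 members were higher (Dnaja1, Hsph1 and Dnajb1; background 1.14%) and 0 lower (background 0.824%). At 12 h Hspbp1 was higher (1 of 39; background 2.9%) and Dnajb9 lower (1 of 39; background 2.67%) in these cells, and at 24 h 0 were higher (background 2.85%) and Hsph1 was lower (1 of 39; background 4.21%). In classical cells at 24 h 2 of 35 were higher (Dnajc22 and Hspa13; background 6.03%) and 3 lower (Hsph1, Dnajb1 and Dnajb6; background 8.33%), and at 96 h 0 were higher (background 2.79%) and 0 lower (background 3.1%).

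Differences between lineages could be tested, since each library held all 4. UMIs of 16 sums were fitted with edgeR's quasi-likelihood test with library as a block. The 4 libraries stand at 4 times, so the spread over libraries includes change with time. Of 11099 genes tested 66 were members, 20 of them higher in monocytes than in T cells (background 37.9%), 33 lower (background 39%) and 13 not called at an adjusted p of 0.05. Between monocytes and B cells 25 were higher in monocytes (background 36.2%) and 22 lower (background 38%). Between B and T cells 14 were higher in B cells (background 29%) and 32 lower (background 29.8%), and between NK and T cells 15 were higher in NK cells (background 21.8%) and 15 lower (background 23%). With library size scaling in place of TMM the median of all genes shifted by 0.14, -0.16, 0.30 and 0.37 on the log2 scale in these contrasts. The split of higher and lower members became 25 and 27, 22 and 27, 25 and 17, and 33 and 4. The share of all genes called was not computed under that scaling, so these counts cannot be read as particular to the members.

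**Figure D4:**
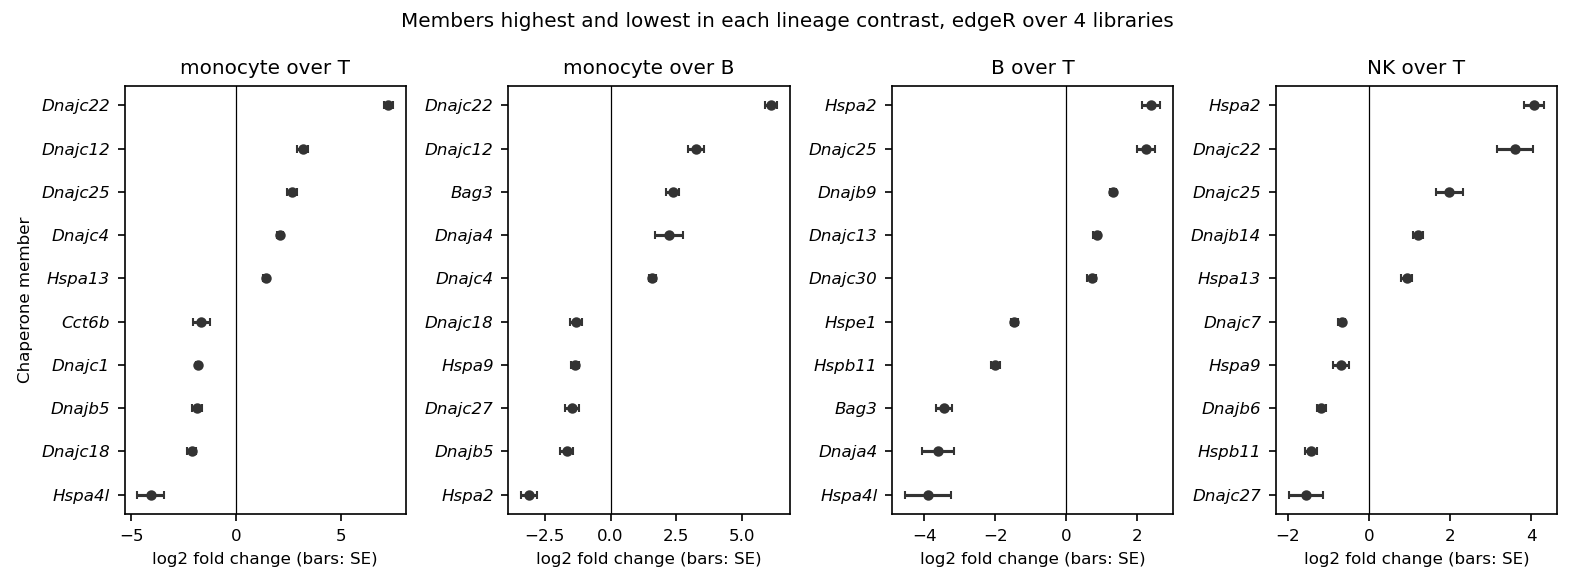
Log2 fold changes with standard errors (edgeR, 4 libraries, library as block) of the 5 members highest and 5 lowest among those called in each of the contrasts monocyte over T, monocyte over B, B over T and NK over T. The axes differ between panels, and a line marks 0. Dnajc22 leads both monocyte contrasts, and Hspa2 leads NK over T and B over T.

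Dnajc22 marked monocytes among the members. It averaged 28.0 ± 4.49 CPM in monocytes and 0.160 ± 0.050 CPM in T cells (SD, n = 4 libraries each), a log2 fold change of 7.26 with a standard error of 0.23 (edgeR, adjusted p = 1.24e-15). The T-cell counts were 2 or 3 UMIs per library, so the fitted fold change depends on the prior count. Its level in B cells was 0.478 ± 0.298 CPM. Dnajc22 was at 24.8, 31.4, 32.4 and 23.6 CPM in monocytes at 0, 12, 24 and 96 h, above every library of the other gates. Dnajc12 had a log2 fold change of 3.18 over T cells (SE 0.27), and Dnajc4 averaged 18.7 ± 1.16 CPM in monocytes and 3.91 ± 0.513 CPM in T cells, both higher in monocytes in 4 of 4 libraries.

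By mean level, Hsph1, Dnajb1 and Dnaja1 were highest in monocytes or NK cells. Hsph1 was higher in monocytes than in T cells by 0.89 on the log2 scale (SE 0.10, edgeR adjusted p = 2.48e-07) and than in B cells by 1.10 (SE 0.11, adjusted p = 3.32e-08), in 4 of 4 libraries. Dnajb1 was higher in monocytes than in T cells by 0.84 (SE 0.10, adjusted p = 2.16e-07). Dnaja1 was called higher in monocytes than in B cells (0.65, SE 0.08) but not than in T cells (0.18, SE 0.08, adjusted p = 0.054). Hspa13 averaged 36.7 ± 3.80 CPM in monocytes against 12.7 ± 1.30 CPM in T cells. Of the ER list 12 of 15 genes were higher (background 37.9%) and 1 lower (background 39%) in monocytes than in T cells. The ER members Dnajb11 (1.05, SE 0.09) and Dnajc3 (0.40, SE 0.09) were higher in monocytes too.

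Hspe1, Hspd1, Hspa9 and most CCT subunits were lower in monocytes than in T cells. Hspe1 had a log2 fold change of -1.63, monocytes over T cells (SE 0.08, edgeR adjusted p = 2.13e-12), Hspd1 of -0.93 (SE 0.09) and Hspa9 of -1.03 (SE 0.16), each lower in 4 of 4 libraries. Of the 7 CCT subunits, Cct2, Cct3, Cct5, Cct6a, Cct7 and Cct8 were lower in monocytes, from -0.29 (Cct7) to -0.74 (Cct2), and Cct4 was not called (-0.05). No sign of a called member turned with library size scaling in this contrast. Between B and T cells all 7 were called lower in B cells with TMM, yet with library size scaling 3 of the 7 calls were lost (Cct4, Cct5 and Cct6a). Cct5 changed sign, and its CPM was higher in B cells in 4 of 4 libraries. Between NK and T cells Cct5, Cct3 and Cct7 were called lower in NK cells with TMM and changed sign with library size scaling, and the call of Cct2 was lost, so the direction of those that changed sign depends on the scaling.

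B cells had the highest Dnajb9. It averaged 92.1 ± 20.1 CPM in B cells against 30.5 ± 10.1 CPM in T cells (SD, n = 4 libraries each), 1.31 higher on the log2 scale (SE 0.09, edgeR adjusted p = 2.82e-10) and higher in 4 of 4 libraries. The plasma cell markers summed to 33.9 to 52.5 CPM in the B gate and 1.3 to 3.0 CPM in the T gate, and their part in this was not tested. Hspa4 was also higher in B than in T cells (0.49, SE 0.07). Bag3 was low in B cells, at 2.49 ± 0.762 CPM against 21.5 ± 4.15 CPM in T cells (-3.44, SE 0.23), and Hspe1 averaged 27.7 ± 3.55 CPM against 61.6 ± 5.40 CPM (-1.46, SE 0.09). Hspa8 (-0.75, SE 0.10) and Hspd1 (-0.92, SE 0.09) were lower in B cells than in T cells as well. Hspb11, named a small heat shock protein but known as a part of the intraflagellar transport machinery, averaged 7.65 ± 0.519 CPM in B cells against 24.9 ± 1.10 CPM in T cells.

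NK cells stood out by Hspa2, an HSP70 known from the testis. It averaged 13.7 ± 2.54 CPM in NK cells against 0.648 ± 0.229 CPM in T cells, 4.07 higher on the log2 scale (SE 0.25, edgeR adjusted p = 2.10e-10) and higher in 4 of 4 libraries, and was below the limit for measured genes. Its level in NK cells was 15.1, 10.2, 16 and 13.7 CPM at 0, 12, 24 and 96 h. Hspa2 averaged 4.12 CPM in B cells and also led the called members in the contrast of B over T cells. Hsp90ab1 was higher in NK than in T cells by 0.27 (SE 0.07, adjusted p = 0.00462), a call lost without the 96 h library. Dnajb14, an ER membrane J protein, averaged 25.2 ± 1.31 CPM in NK cells against 8.49 ± 1.57 CPM in T cells. Dnajb6 was lower in NK cells, at 35.4 ± 4.52 CPM against 62.3 ± 4.93 CPM in T cells (-1.17, SE 0.11). Without the 96 h library, 9 members in place of 15 were called higher in NK than in T cells. The share of all genes called without that library was not computed.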

How the data were processed

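Gene-by-cell counts of UMIs came from 4 libraries of blood mononuclear cells, 1 per time. The authors deposited these counts unnormalized, and Cell Ranger, Seurat and the build mm10 are named, per the submitters' processing notes, with tool versions not given in the sources used here. Cells with under 200 genes or over 10% mitochondrial UMIs were left out, as were doublets called with Scrublet in scanpy 1.11.5 (4.07% to 5.49% per library). The libraries held 62481134, 60515205, 76597006 and 79516878 UMIs at 0, 12, 24 and 96 h, and 11410, 10464, 10908 and 12929 cells were used. Cells were gated on at least 3 UMIs from at least 2 markers of a lineage, with at most 10% of marker UMIs from other lineages, and 25.4% to 36.8% of used cells fell in no gate.

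UMIs were summed per library and gate and divided by all UMIs of that sum. Levels carry exact Poisson intervals and ratios exact conditional binomial intervals, both at 95% and for counting error only. Replicates are lacking within a time, so ratios to the control were not tested and are called at 1.5-fold. Lineages were compared with edgeR 4.0.16 (R 4.3.3, quasi-likelihood test, TMM, library as block, Benjamini-Hochberg adjustment), for which the labels do not say whether libraries are separate animals. This step was tried on simulated data: 16 sums drawn from 1 pooled profile, with genes changed in the monocyte sums. The contrast of monocytes over T cells recovered 98% of 100 genes changed 1.5-fold and 100% of 100 changed 2-fold. It also called 7 of 10346 unchanged genes. The simulation had 1 fixed spread for all genes and no effect of library or time. It therefore does not give the power reached in these data. Library as a block follows from each library holding all lineages.

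The members and lists were chosen with earlier results of these data known. Named genes were a core set of inducible and abundant chaperones, the 3 highest and 3 lowest measured members per lineage and time by the interval bound nearest to 1, the 5 highest and 5 lowest called members per contrast, the CCT subunits, and the extremes of each companion list. Any other gene named beside a count or for its role was chosen after its values were seen. Alternatives were other cell filters and gates, doublets kept, other scalings, other limits on low values, DESeq2 1.42.0, no block, and each library left out. Taking cells without a cell cycle UMI, taking T cells without an NK marker UMI, library size scaling, and classical and nonclassical gates were added after seeing the data.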

Additional observations from a re-analysis of the deposited data

Results flagged for a closer look

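With 1 library per time, 4 comparisons drew attention because gates of the same library stood on opposite sides of the control with intervals that excluded 1 and ratios that lay at least 1.5-fold apart. The difference between the gates was not tested in any of them. Dnajb1 at 12 h was at 1.188 times the control level in T cells and at 0.7908 in monocytes. With at most 5% mitochondrial UMIs, which left 56 control T cells, it was at 0.7085 in T cells and at 0.850 in monocytes, below the control in both. Dnajc21 at 24 h was at 1.412 in B cells and at 0.7772 in monocytes. Dnajc9 at 12 h was at 1.148 in monocytes and at 0.7006 in NK cells, and at 24 h it was at 1.239 in NK cells, at 0.6673 in monocytes and at 0.8187 in T cells.

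The NK values of Dnajc9, a histone co-chaperone, stood beside a like order of the cell cycle list in that gate. At 12 h 5 of the list's 8 measured genes were at least 1.5-fold lower (background 2.26%) and 0 higher (background 4.4%). At 24 h 5 were higher (background 4.88%) and 0 lower (background 3.72%). Cells with a UMI of Mki67, Top2a, Cdk1, Ccnb1, Birc5 or Tyms made up 10.14% of NK cells at 12 h and 24.02% at 24 h, against 14.47% in the control. Median UMIs per NK cell stood in the same order, at 4120, 5806 and 4765.5. Without the cells that held such a UMI the ratio of Dnajc9 in NK cells was 0.922 at 12 h and 0.978 at 24 h. The part of dividing cells and of depth in these values was not tested.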

How the results depend on the processing

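Numbers of members or companion genes at least 1.5-fold from the control moved with the limits set on cells and genes, and the value as reported stands in brackets after each. The share of all genes past 1.5-fold was not computed under these alternatives. The counts therefore cannot be read as particular to the members or companions. Few cells remained at the 5% limit, and genes with very few UMIs entered with no filter on low values. With at most 5% mitochondrial UMIs, members past 1.5-fold were, in monocytes 5 at 12 h (2), 5 at 96 h (1) and in T cells 11 at 12 h (3), 12 at 24 h (2), 7 at 96 h (2). With a mean of at least 100 CPM, members past 1.5-fold were, in monocytes 0 at 12 h (2), 0 at 24 h (2), in T cells 1 at 12 h (3), 0 at 24 h (2), 1 at 96 h (2), in B cells 0 at 12 h (2) and in NK cells 0 at 12 h (2), 0 at 24 h (2), 1 at 96 h (2). With no filter on low values, members past 1.5-fold were, in monocytes 9 at 12 h (2), 16 at 24 h (2), 12 at 96 h (1), in T cells 11 at 12 h (3), 14 at 24 h (2), 12 at 96 h (2), in B cells 14 at 12 h (2), 10 at 24 h (0), 15 at 96 h (3) and in NK cells 22 at 12 h (2), 16 at 24 h (2), 17 at 96 h (2). Without cells with a cell cycle UMI, members past 1.5-fold were, in monocytes 1 at 12 h (2), in T cells 0 at 24 h (2) and in NK cells 5 at 24 h (2), 5 at 96 h (2). With the stricter gate, members past 1.5-fold were, in monocytes 1 at 24 h (2), 2 at 96 h (1) and in B cells 4 at 12 h (2), 2 at 24 h (0), 5 at 96 h (3). With median-of-ratios scaling, members past 1.5-fold were, in monocytes 1 at 24 h (2) and in T cells 1 at 24 h (2). With the mean over cells, members past 1.5-fold were, in monocytes 1 at 24 h (2), 3 at 96 h (1) and in T cells 0 at 24 h (2). With no cell filter, members past 1.5-fold were, in T cells 1 at 24 h (2). For T cells without an NK marker UMI, members past 1.5-fold were, in T cells 0 at 96 h (2). With at most 5% mitochondrial UMIs, companion genes were, in monocytes 8 at 12 h (5), 2 at 96 h (1) and in T cells 8 at 12 h (5), 7 at 24 h (2), 4 at 96 h (0). With no filter on low values, companion genes were, in monocytes 9 at 12 h (5), 2 at 96 h (1), in T cells 8 at 12 h (5), 7 at 24 h (2), in B cells 5 at 12 h (3), 3 at 24 h (1), 2 at 96 h (1) and in NK cells 10 at 96 h (6). With the stricter gate, companion genes were, in monocytes 1 at 24 h (7), 2 at 96 h (1), in B cells 6 at 12 h (3), 2 at 24 h (1), 3 at 96 h (1) and in NK cells 5 at 12 h (3). With the mean over cells, companion genes were, in monocytes 4 at 24 h (7), 2 at 96 h (1). With a mean of at least 100 CPM, companion genes were, in monocytes 3 at 24 h (7), 0 at 96 h (1), in T cells 1 at 12 h (5), 0 at 24 h (2), in B cells 1 at 12 h (3), 0 at 24 h (1), 0 at 96 h (1) and in NK cells 0 at 12 h (3), 0 at 24 h (4), 1 at 96 h (6). With no cell filter, companion genes were, in T cells 4 at 24 h (2). Without cells with a cell cycle UMI, companion genes were, in B cells 0 at 96 h (1). The members' median log2 ratio in T cells was -0.0853 at 12 h, -0.21 at 24 h and -0.15 at 96 h with at most 5% mitochondrial UMIs, and -0.17 at 24 h without NK marker UMIs. It was -0.0232 in monocytes at 24 h with median-of-ratios scaling, which shifted all genes there by 0.10, and -0.0108 in T cells and 0.0160 in B cells at 96 h with no filter on low values. Of 1704 single-gene ratios under the alternatives 75 lay on the other side of 1 from the value as reported, 19 of them where the reported interval excluded 1. Of these, 14 arose at the 5% limit, 11 in T cells against 56 control cells and 3 in monocytes. Hsph1 in T cells at 96 h was the 1 among them whose reported ratio was past 1.5-fold (1.68), and its log2 ratio at the 5% limit was -0.31. At that limit Hsph1 (0.595) and Hspd1 (0.590) in T cells at 12 h were past 1.5-fold below the control. The 5% limit gave no value for B and NK cells over time. Between lineages, that limit left 21 members lower in monocytes than in T cells, 9 higher and 4 lower in monocytes than in B cells, 1 higher and 12 lower in B than in T cells, and 7 higher and 5 lower in NK than in T cells. Sums of under 50 cells were dropped there. B cells remained at 12 h (69 cells) and 96 h (103) but not at 0 h (8) or 24 h (24). NK cells were dropped at 0 h (15). These counts thus rest on fewer libraries, and no share of all genes stands beside them. T cells without NK marker UMIs left 9 lower in NK than in T cells. Library size scaling gave 25 higher and 17 lower in B than in T cells, and 33 higher and 4 lower in NK than in T cells. Leaving out 1 library at a time gave 9 to 14 members higher in NK than in T cells, 9 of them without the 96 h library. Without the library block 18 members were higher and 32 lower in monocytes than in T cells, and no count moved past 1.5-fold. For the lineage counts under all these alternatives the share of all genes called was not computed, so they cannot be read as particular to the members. No paired analysis was possible over time because each time has 1 library. The causes were not tested. Depth limits the NK gate most.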
